A study of Mus musculus with 24 samples.

Results

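The later phase of the response to lipopolysaccharide (LPS) was set against its earliest phase in a single line of mouse macrophages. The comparison took the 4 libraries collected at 5 h of LPS and the 4 collected at 1 h from the Nur77 line, 8 of the 24 libraries of the series, chosen by the line and time in the sample titles. RAW 264.7 is an established, virus-transformed mouse macrophage line. Its Nur77 derivative carried a doxycycline-inducible construct for Nur77, the orphan nuclear receptor encoded by Nr4a1, and a sister derivative carried GFP in its place. Cells of both derivatives, at all times including 0 h, had received 50 ng/ml doxycycline for 18 h, and LPS was given at 500 ng/ml. The groups used were the Nur77 line at 5 h, at 1 h and at 0 h, and the GFP line at 5 h and at 1 h, with 4 libraries each. Each construct was present in 1 stable line, so the line and the construct cannot be told apart. The labels do not say that replicates were separate cultures, and p-values therefore reflect only how far these libraries vary, part of which may be technical.

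LPS is sensed by Toll-like receptor 4 with its partners MD-2 and CD14. The adaptors MyD88 and TRIF relay the signal to NF-kB, to the MAP kinases and to interferon regulatory factors. Immediate early genes such as Fos, Jun, Egr1 and Nr4a1 itself are switched on by factors already present in the cell and are shut off quickly by phosphatases, mRNA decay factors and inhibitor proteins that are products of the same burst. Genes that need new protein, remodelled chromatin or secreted interferon follow later. Interferon-beta signals through Janus kinases and Stat and Irf factors to antiviral genes in this way.

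Total estimated counts over 25160 genes were 11103773.5 to 29275847 in the 8 libraries, and 12198 genes were tested. On the first principal component of all 24 libraries, which held 48.0% of the variance, the 5 h libraries lay between 62.9 and 64.4. Of the 1 h libraries, 3 lay between -11.4 and -10.2, while 1 h replicate 2 lay at 11.7, in the direction of the 5 h libraries. Results are therefore given with and without that library. The 45S ribosomal RNA transcript took 0.601% to 1.53% of the counts at 5 h and 0.557% to 1.72% at 1 h. Of 24 macrophage genes 20 averaged at least 10 CPM at 5 h and at 1 h, Spi1, Cd68, Lyz2 and Csf1r among them. Below that level Cebpa averaged 3.84 CPM at 5 h and 6.16 CPM at 1 h and Cd84 1.31 CPM at 5 h and 2.05 CPM at 1 h, and Mertk had 5 counts in all over the 8 libraries. Of 10 lymphocyte markers 7 and of 10 epithelial markers 8 had no count in any of the 8 libraries, and the fibroblast genes Col1a2, Col3a1, Dcn and Lum were also at 0. Of the marker lists of other cells only Pdgfrb, Lck, Csf3r and S100a8 had enough counts for a test, and Lck (5 h 16.1 ± 1.21 CPM, 1 h 8.28 ± 2.36 CPM) and Pdgfrb (5 h 2.19 ± 0.0657 CPM, 1 h 0.157 ± 0.118 CPM) were called higher at 5 h (SD, n = 4). Summed over its 10 genes the fibroblast list had 2.28 to 2.75 CPM at 5 h and 0.202 to 0.449 CPM at 1 h, the lymphocyte list 14.8 to 17.7 CPM at 5 h and 6.46 to 11.4 CPM at 1 h, and the neutrophil list 9.93 to 13.3 CPM at 5 h and 8.68 to 10.8 CPM at 1 h. The part of such cells in the results was not tested, and in bulk RNA fewer cells of a kind and less RNA per cell cannot be told apart. Levels below are normalised counts (CPM) on effective library sizes, with the SD over 4 libraries after ±. The threshold for a call was an adjusted p of 0.05 in edgeR's quasi-likelihood test with Benjamini-Hochberg adjustment over all genes tested.

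Nr4a1 was read first, as the gene named by the construct. It had 4.51, 5.12, 5.20 and 4.74 CPM at 5 h and 42.4, 9.29, 40.0 and 39.8 CPM at 1 h, with 2.74 to 3.71 CPM before LPS. All 5 h libraries lay below all 1 h libraries, and 1 h replicate 2 lay far below the other 1 h libraries. The log2 fold change was -2.76 (SE 0.30, adjusted p = 1.1e-07), or -3.07 without replicate 2 (adjusted p = 3.1e-19). Whether the construct is read by this transcript is not stated in the labels, so these counts do not check them.

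More genes were called than not. At 5 h 3278 genes (26.9%) were higher and 3485 (28.6%) lower, 55.4% in all. Changes of at least 1 on the log2 scale were fewer, 658 higher (5.39%) and 813 lower (6.67%). Without 1 h replicate 2 there were 3587 higher (29.4%) and 3622 lower (29.7%), and past the size limit these counts were 772 (6.33%) and 932 (7.64%). The median log2 fold change over all genes tested was -0.01, and CPM of the 4 and 4 libraries did not overlap for 5050 genes (41.4%), or 6548 (53.7%) without replicate 2. The plot of fold change against level shows these changes over the whole range of abundance.

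**Figure D1:**
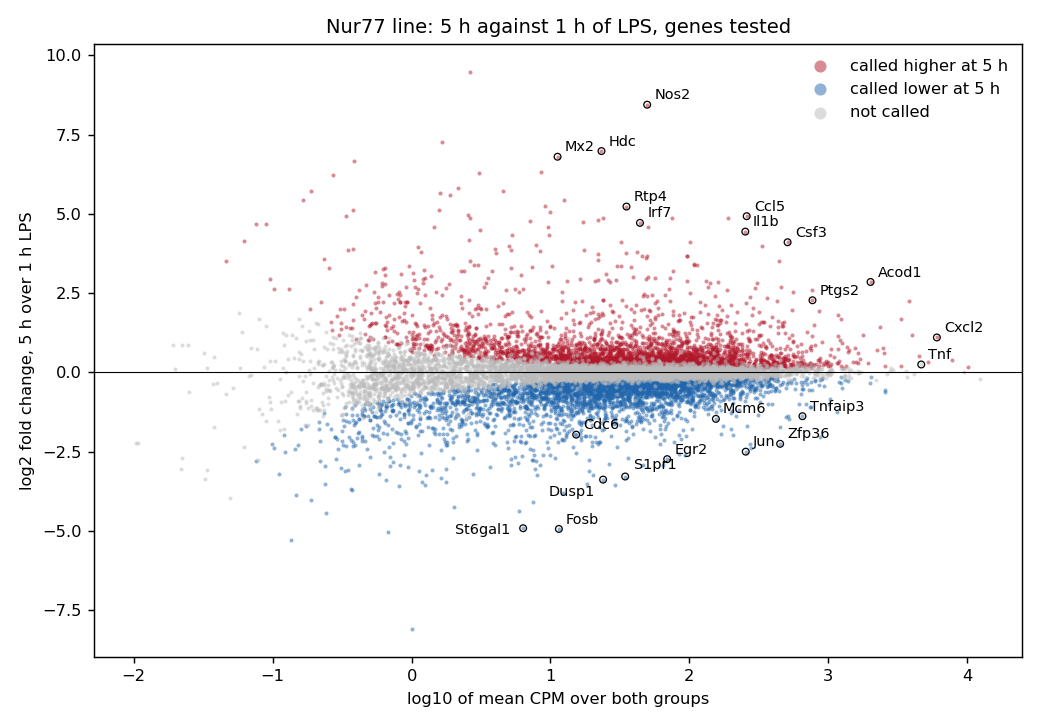
Log2 fold change at 5 h over 1 h of LPS in the Nur77 line (vertical axis) against the log10 of the mean CPM over both groups (horizontal axis), 1 point per gene tested with a count in either group. Red and blue points are the 3278 genes called higher and the 3485 called lower, grey points were not called, and circles mark named genes.

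With all 8 libraries, the largest rises among genes that reached 10 CPM were those of Nos2, Hdc, Mx2, Zfp811, Zbp1, Oasl2, Rtp4, Ifi44l, Ccl5 and Ifi44. Without 1 h replicate 2, the rises of Il6 (6.34), Csf3 (5.86) and Lcn2 (5.85) were larger than those of Rtp4 (5.31), Ifi44 (5.20) and Ccl5 (4.77). Nos2, the inducible nitric oxide synthase, stood at 96.0, 91.1, 102 and 107 CPM at 5 h and at 0.0416, 1.08, 0.0436 and 0.179 CPM at 1 h. The 1 h libraries held 1, 16, 1 and 1.5 counts, so the gene was close to silent in 3 of them, and replicate 2 held most of the group's counts. Its log2 fold change was 8.44 (SE 0.26, adjusted p = 9.9e-18), and 10.34 without replicate 2. Hdc, which makes histamine from histidine, had 41.7, 46.0, 50.9 and 46.1 CPM at 5 h and 0.333, 0.808, 0.174 and 0.179 CPM at 1 h, a log2 fold change of 6.98 (SE 0.21). Zfp811, a zinc finger gene of a large family whose members share sequence, averaged 16.9 ± 0.858 CPM at 5 h and 0.214 ± 0.0668 CPM at 1 h (log2 fold change 6.31, SE 0.26). The remaining 7 are an inflammatory chemokine and 6 interferon-stimulated genes, described with their lists.

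The largest falls were those of Fosb, St6gal1, Gem, Dkk2, Arc, Angptl2, Egr3, Dusp1, S1pr1 and Abcd2, and they were of 2 kinds. Fosb, Gem, Arc, Egr3 and Dusp1 were low before LPS, high at 1 h and low again at 5 h. Gem, a small GTPase of the RGK family, had 0.288 to 0.911 CPM at 5 h, 5.12 to 14.7 CPM at 1 h and 0 to 0.119 CPM at 0 h. Arc, best known as an activity-regulated gene of neurons, had 1.28 to 2.02 CPM at 5 h, 15.4 to 26.6 CPM at 1 h and 2.58 to 3.33 CPM at 0 h. St6gal1, Dkk2, Angptl2, S1pr1 and Abcd2 were present before LPS, were not called at 1 h against 0 h except for Abcd2 (-0.32), and were lower at 5 h than at either time. St6gal1, the sialyltransferase that caps N-glycans with alpha-2,6-linked sialic acid, had 0.301, 0.360, 0.371 and 0.729 CPM at 5 h, 15.8, 0.875, 15.2 and 17.2 CPM at 1 h and 14.01 to 18.9 CPM at 0 h. Its level in 1 h replicate 2 was close to the 5 h level, and the groups still did not overlap (log2 fold change -4.92, SE 0.63, and -5.29 without that library). Angptl2, an angiopoietin-like secreted protein, averaged 4.66 ± 1.10 CPM at 5 h and 54.0 ± 8.63 CPM at 1 h. Abcd2, a peroxisomal transporter of very long-chain fatty acids, averaged 3.81 ± 0.327 CPM at 5 h and 36.6 ± 8.21 CPM at 1 h. Dkk2, a secreted Wnt antagonist, averaged 0.838 ± 0.233 CPM at 5 h and 14.01 ± 3.49 CPM at 1 h.

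**Figure D2:**
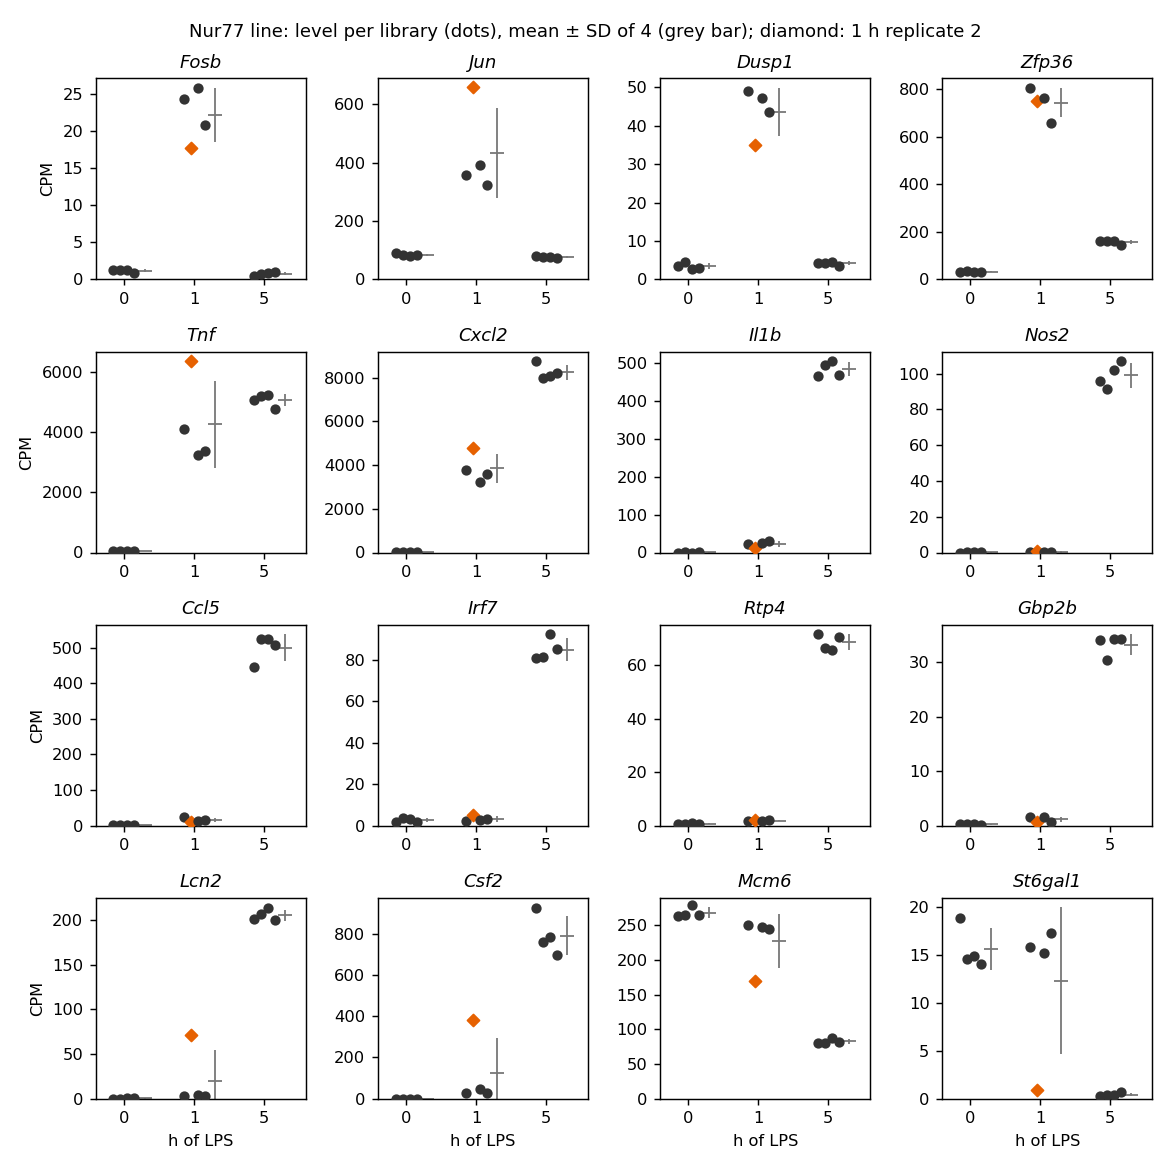
CPM (vertical axis, linear from 0) of 16 genes in each library of the Nur77 line at 0, 1 and 5 h of LPS (horizontal axis); dots are libraries, the orange diamond is 1 h replicate 2, and grey bars are the mean ± SD of 4 libraries. Among the times shown Fosb, Jun, Dusp1 and Zfp36 are highest at 1 h. Il1b, Nos2, Ccl5, Irf7, Rtp4 and Gbp2b are high at 5 h, and the diamond lies apart for Lcn2, Csf2, Mcm6 and St6gal1.

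Genes of the immediate early programme were mostly lower at 5 h than at 1 h. Of 24 regulators of this kind 15 were called lower and 2 higher, where 28.6% and 26.9% of all genes tested were. The median log2 fold change was -0.53 against -0.01 for all genes tested. Without replicate 2, 14 were lower and 4 higher, where 29.7% and 29.4% of all genes were. Against 0 h, 19 of them were called higher at 1 h, where 22.5% of all genes were, and 17 at 5 h, where 32.5% were. Called lower than at 0 h were 4 at 1 h and 4 at 5 h, where 21.8% and 34.2% of all genes were. The Egr family of zinc finger factors fell: Egr2 had 18.4, 16.7, 18.7 and 18.4 CPM at 5 h and 121, 107, 132 and 121 CPM at 1 h, without overlap and with a narrow spread (log2 fold change -2.74, SE 0.08, adjusted p = 1.9e-19). Egr3 fell to 2.84 ± 0.626 CPM at 5 h, against 33.9 ± 9.58 CPM at 1 h. Egr1 fell to 94.4 ± 7.15 CPM at 5 h, against 454 ± 145 CPM at 1 h, where replicate 2 was the highest library with 662 CPM. Btg2, an antiproliferative partner of the deadenylase complex, had a log2 fold change of -2.58 (SE 0.10). The 2 members called higher with all libraries, named after their values were seen, were Nr4a3, a relative of Nr4a1 (2.18, SE 0.20), and Nab2, a co-repressor of Egr factors (0.48). Without replicate 2 Gadd45a (0.83, against 0.25 with it) and Ier3 were called higher as well. Ier3, an NF-kB target that modulates survival, was at 302, 283, 283 and 265 CPM at 5 h and 279.6, 585, 241 and 223 CPM at 1 h. It was not called (log2 fold change -0.23, adjusted p = 0.32), and without replicate 2 it was called in the opposite direction (0.19, adjusted p = 0.017).

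Short promoter windows of genes from both phases are shown because the lists differ in the motifs their windows hold. Each is the 250 bases before the RefSeq start site on the gene's own strand (GRCm38.p6, 5′ to 3′). Capitals mark matches, on either strand, to a motif named in each case. The first pair, Egr2 (chr10:67537316-67537565, plus strand) and Zfp36 (chr7:28379229-28379478, minus strand), each hold 1 CArG box, the site bound by serum response factor. Dusp1 (chr17:26508473-26508722, minus strand) holds 1 cyclic AMP response element, TGACGTCA.
Egr2: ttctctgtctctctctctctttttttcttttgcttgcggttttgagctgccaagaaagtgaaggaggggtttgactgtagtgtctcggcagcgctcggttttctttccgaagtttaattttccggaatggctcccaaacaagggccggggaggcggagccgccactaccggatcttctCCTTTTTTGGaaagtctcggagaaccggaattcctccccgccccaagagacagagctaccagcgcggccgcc
Zfp36: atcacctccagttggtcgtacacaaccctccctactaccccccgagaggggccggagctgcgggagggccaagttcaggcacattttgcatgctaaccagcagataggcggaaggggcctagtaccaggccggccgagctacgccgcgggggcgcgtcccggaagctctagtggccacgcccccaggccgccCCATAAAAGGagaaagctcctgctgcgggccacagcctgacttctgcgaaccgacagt
Dusp1: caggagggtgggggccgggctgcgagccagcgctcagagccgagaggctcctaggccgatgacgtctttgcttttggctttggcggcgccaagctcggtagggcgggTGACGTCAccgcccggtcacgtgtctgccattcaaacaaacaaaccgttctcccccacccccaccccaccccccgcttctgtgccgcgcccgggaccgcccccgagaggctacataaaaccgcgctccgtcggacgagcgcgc
A CArG box occurred in 2 of the 18 immediate early regulators with a window in the RefSeq table (11.1%) and in 1.62% of all windows of the table, or 1.21% of those of genes tested. Of the genes shown above only Egr2 belongs to that list. Zfp36 was listed with mRNA decay regulators and Dusp1 with MAP kinase phosphatases, lists whose windows were not counted. The cyclic AMP response element occurred in 2 of 18 and in 1.77% of all windows, or 3.11% of those of genes tested. Windows were found for 122 of the 166 named genes. A match describes letters only and draws nothing about binding.

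The AP-1 family, dimers of Fos, Jun, ATF and Maf proteins, was mostly lower. Of 15 subunits and partners tested 10 were called lower and 4 higher, with a median of -0.87. Among all genes tested 28.6% were called lower and 26.9% higher, so the 4 higher members were near the share of all genes. Fosb had 0.489, 0.721, 0.891 and 1.003 CPM at 5 h and 24.4, 17.8, 25.8 and 20.8 CPM at 1 h (log2 fold change -4.94, SE 0.20, adjusted p = 1.3e-16). Jun had 80.2, 76.5, 76.2 and 72.4 CPM at 5 h and 356, 659, 393 and 322 CPM at 1 h, and here replicate 2 was the highest 1 h library (-2.501, SE 0.14, and -2.23 without it). At 0 h Fosb had 0.908 to 1.31 CPM and Jun 80.8 to 89.8 CPM, so both were back near or below that level at 5 h. Fos fell to 4.32 ± 1.23 CPM at 5 h, against 16.9 ± 0.977 CPM at 1 h (-1.97, SE 0.12). Junb averaged 284 ± 14.9 CPM at 5 h and 741 ± 112 CPM at 1 h, and Atf3, a repressor of inflammatory genes, 123 ± 4.64 CPM at 5 h and 225 ± 34.4 CPM at 1 h. Unlike Jun and Fos, both remained called higher at 5 h than at 0 h (log2 2.19 and 1.84). The 4 members called higher, named after their values were seen, were Batf (3.09), Batf2 (2.83), Jdp2 (0.55) and Mafg (0.33), and Batf averaged only 1.12 CPM at 5 h and 0.156 CPM at 1 h.

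Several brakes on the early signal fell too. Dual-specificity phosphatases inactivate MAP kinases: of 15 such genes and related ERK inhibitors 9 were lower and 2 higher (median -0.49). Dusp1 had 4.25, 4.32, 4.60 and 3.46 CPM at 5 h and 49.0, 34.9, 47.2 and 43.6 CPM at 1 h, with no overlap (log2 fold change -3.38, SE 0.13, adjusted p = 2e-17). Dusp5, specific for nuclear ERK (-1.29), Dusp8 (-1.501) and Dusp4 (-0.73) fell as well. The 2 called higher were Dusp7 (0.86) and Spred1 (0.46). Without replicate 2 Dusp6 (1.02) and Spry4 (1.12) were called higher as well; these 4 were named after their values were seen. Zfp36, encoding tristetraprolin, which destabilises AU-rich mRNAs of cytokines, had 159.7, 159.8, 160.0 and 144 CPM at 5 h and 804, 751, 764 and 656 CPM at 1 h (-2.25, SE 0.07). Its relatives Zfp36l1 (-1.11) and Zfp36l2 (-1.09) and the deadenylase partner Tob1 (-2.04) also fell. Over the 17 mRNA decay regulators tested 6 were lower and 5 higher (median -0.09), shares near those of all genes tested, of which 28.6% were lower and 26.9% higher.

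NF-kB genes moved both ways. Of 24 genes 10 were higher and 9 lower, where 26.9% and 28.6% of all genes tested were, with a median of 0.00. The precursor subunits rose: Nfkb1 had 798, 909, 909 and 876 CPM at 5 h and 202, 284, 199.8 and 206 CPM at 1 h (1.97, SE 0.09), and Nfkb2 averaged 382 ± 29.0 CPM at 5 h and 132 ± 12.8 CPM at 1 h. Ripk2, the kinase of the NOD receptors, rose by 1.17 on the log2 scale. The feedback inhibitors differed among themselves. Tnfaip3, encoding the deubiquitinase A20, had 346, 373, 369.9 and 357 CPM at 5 h and 1021, 825, 986 and 934 CPM at 1 h (-1.38, SE 0.07), and Nfkbia, encoding I-kappa-B-alpha, fell to 538 ± 18.7 CPM at 5 h, against 769 ± 76.1 CPM at 1 h (-0.52). Both stayed called higher than at 0 h (log2 3.99 and 2.79). Of other I-kappa-B family and A20-binding members, named after their values were seen, Nfkbid (-1.82), Nfkbiz (-1.26), Bcl3 (-0.60), Nfkbie (-0.54) and Tnip3 (-0.33) fell, while Nfkbib (0.49) and Tnip1 (0.57) rose.

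Cytokine transcripts built up between the times. Of 23 tested 16 were higher and 2 lower, with a median of 1.70, and without 1 h replicate 2 the counts were 19 and 2. Among all genes tested 26.9% were called higher and 28.6% lower, and without that library 29.4% and 29.7%. Il1b, encoding interleukin 1 beta, had 464, 494, 504 and 469 CPM at 5 h and 22.3, 13.1, 24.5 and 29.4 CPM at 1 h (4.44, SE 0.18, adjusted p = 2.7e-15), so the lowest 5 h library was far above the highest 1 h library. Il1a averaged 814 ± 11.1 CPM at 5 h and 72.0 ± 19.8 CPM at 1 h, Il27 90.0 ± 2.03 CPM at 5 h and 7.29 ± 1.82 CPM at 1 h, and the leukaemia inhibitory factor gene Lif 236 ± 11.5 CPM at 5 h and 36.6 ± 5.49 CPM at 1 h. Tnf, the prototype of a fast LPS gene, had 5060.0, 5200.1, 5231 and 4777 CPM at 5 h and 4096, 6359, 3234 and 3369 CPM at 1 h. Replicate 2 was above all 5 h libraries and the other 1 h libraries were below them; the log2 fold change was 0.25 and not called (adjusted p = 0.15), and 0.51 without replicate 2, which was called (adjusted p = 3e-05).

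Il6 was near its floor at 1 h, with 5.5, 41, 7 and 0 counts, against 549.5, 232.5, 253 and 196 counts at 5 h. In CPM these were 20.7, 16.7, 18.8 and 17.9 at 5 h and 0.250, 2.76, 0.305 and 0 at 1 h (4.60, SE 0.41, and 6.34 without replicate 2). Il12b, a subunit shared by interleukins 12 and 23, had no count in the 1 h libraries and 47.5 counts over the 5 h libraries; against a floor of 3 counts over the 1 h group it was at least 17.8-fold higher. Il10 and Ifnb1 had too few counts for a test: Il10 had no count at 5 h and 2, 0, 3 and 0 at 1 h, and Ifnb1 had 9, 3, 7 and 1 at 5 h and 4, 1, 6 and 1 at 1 h. Of the colony stimulating factor genes, Csf3 and Csf2 moved by about as much as Il6 when replicate 2 was left out, and Csf1 by less (2.25, and 2.48 without it). Csf3 had 901, 1002, 989 and 955 CPM at 5 h and 18.0, 176, 14.4 and 17.4 CPM at 1 h (4.10, and 5.86 without replicate 2), and Csf2 had 924, 761, 781 and 696 CPM at 5 h and 30.1, 382, 47.9 and 30.3 CPM at 1 h (2.70 and 4.44). The 2 cytokines called lower, named after their values were seen, were Tnfsf9, the ligand of 4-1BB (88.7 ± 4.48 CPM at 5 h and 464 ± 145 CPM at 1 h), and Flt3l (-0.94).

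Chemokines, which draw leukocytes to a site, followed the cytokines. Of 9 CC chemokines 8 were higher, where 26.9% of all genes tested were and 28.6% were lower. Ccl4 was not called, and the median was 2.25 (3.45 without replicate 2). Ccl5 had 446, 526, 524 and 507 CPM at 5 h and 24.1, 10.4, 13.8 and 16.9 CPM at 1 h (4.93, SE 0.16, adjusted p = 2e-17). Ccl22, a ligand of CCR4, had 375, 367, 368 and 349 CPM at 5 h and 11.6, 13.8, 13.2 and 10.9 CPM at 1 h (4.88, SE 0.10). For both genes every 5 h library stood far above every 1 h library. Ccl3 averaged 6269.6 ± 295 CPM at 5 h and 1324 ± 426 CPM at 1 h and Ccl9 5099 ± 32.7 CPM at 5 h and 1578 ± 281 CPM at 1 h; the annotated span of Ccl4 overlaps that of Ccl3, so the split of reads between these neighbours is uncertain. Ccl2 had 729.9, 685, 711 and 712 CPM at 5 h and 61.1, 404, 67.8 and 65.3 CPM at 1 h (2.25, and 3.45 without replicate 2). Of 8 CXC and CX3C chemokines 6 were higher and Cxcl14 was lower (-1.001, named after its values were seen), with a median of 1.74. Cxcl2, a neutrophil attractant, had 8751, 7964, 8082 and 8197 CPM at 5 h and 3759.8, 4781, 3238 and 3599 CPM at 1 h (1.10, SE 0.14). Cxcl11 had 175 to 189 CPM at 5 h and 8.35 to 16.2 CPM at 1 h, Cxcl16 averaged 43.8 ± 3.07 CPM at 5 h and 11.3 ± 2.20 CPM at 1 h, and Cx3cl1 and Cxcl3 were low throughout (5.11 and 3.19 CPM at 5 h). Cxcl10 was at 505, 462, 460.2 and 474 CPM at 5 h and 561, 185, 529 and 574 CPM at 1 h. It was not called (0.04, adjusted p = 0.89) and was called lower without replicate 2 (-0.22, adjusted p = 0.0063).

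The window of Cxcl2 (chr5:90903649-90903898, plus strand, GRCm38.p6) is shown as one of the 4 of 8 CXC and CX3C chemokine windows (50.0%) that hold the NF-kB motif (GGGA and TTCC with 2 bases between), which 1.36% of all windows and 1.52% of those of genes tested hold. None of 8 CC chemokine windows holds it. Its 2 matches are the opposite strands of 1 run, in capitals.
Cxcl2: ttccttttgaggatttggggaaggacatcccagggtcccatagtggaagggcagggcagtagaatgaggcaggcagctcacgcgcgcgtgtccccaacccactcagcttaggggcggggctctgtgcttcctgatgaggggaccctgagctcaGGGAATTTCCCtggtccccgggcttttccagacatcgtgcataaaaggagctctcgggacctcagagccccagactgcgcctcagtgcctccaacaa
Among the NF-kB subunits and inhibitors 3 of 20 windows held this motif (15.0%).

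Effector genes of activated macrophages rose as a group. Of 29 tested 24 were called higher, where 26.9% of all genes tested were, and the others were not called, with a median of 1.56. Without replicate 2, 26 were higher, where 29.4% of all genes were. Acod1, which makes the antimicrobial metabolite itaconate, had 3511, 3604, 3616 and 3423 CPM at 5 h and 527, 452, 482 and 501 CPM at 1 h (2.85, SE 0.17). Ptgs2, the inducible cyclooxygenase, had 1344, 1139, 1210.3 and 1405 CPM at 5 h and 138, 523, 193 and 200.2 CPM at 1 h (2.27, SE 0.27, and 2.85 without replicate 2). The acute phase gene Saa3 averaged 191 ± 2.68 CPM at 5 h and 11.0 ± 2.14 CPM at 1 h, and Sod2, the mitochondrial superoxide dismutase, 716 ± 11.3 CPM at 5 h and 240.1 ± 2.59 CPM at 1 h. Lcn2, an iron-sequestering lipocalin, had 201, 206, 213 and 199.8 CPM at 5 h and 3.08, 71.1, 4.23 and 3.23 CPM at 1 h. Its log2 fold change of 3.37 was 5.85 without replicate 2. Upp1, a uridine phosphorylase, had 15.0, 16.7, 17.8 and 21.7 CPM at 5 h and 0.0833, 33.1, 1.05 and 0.897 CPM at 1 h, was not called (1.08, adjusted p = 0.23), and was called at 4.80 without that library. Lix1 likewise had 23.1 to 27.9 CPM at 5 h and 0.916, 18.2, 1.92 and 1.08 CPM at 1 h (2.21 and 4.19).

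Interferon-stimulated genes rose almost throughout. Of 50 antiviral genes 49 were called higher and 1 lower, where 26.9% and 28.6% of all genes tested were. The median was 2.64 against -0.01 for all genes, and the same counts were found without replicate 2. Against 0 h 15 were called higher and 7 lower at 1 h, where 22.5% and 21.8% of all genes were, and 12 higher and 8 lower without replicate 2. At 5 h 49 were higher than at 0 h, where 32.5% of all genes were. Rtp4, a chaperone with antiviral activity, had 71.6, 66.4, 65.8 and 70.5 CPM at 5 h and 1.58, 2.15, 1.74 and 1.97 CPM at 1 h (5.23, SE 0.12, adjusted p = 1.5e-21). Mx2, counted on a non-coding RefSeq transcript, averaged 22.3 ± 2.40 CPM at 5 h and 0.210 ± 0.220 CPM at 1 h (6.80). The nucleic acid sensor Zbp1 averaged 24.4 ± 1.804 CPM at 5 h and 0.584 ± 0.256 CPM at 1 h (5.45). Oasl2, of the oligoadenylate synthetase-like family, rose by 5.24, Ifi44l by 5.06 and Ifi44 by 4.88 on the log2 scale. Trim30a had 97.9, 95.2, 103 and 103 CPM at 5 h and 12.2, 14.1, 11.99 and 12.9 CPM at 1 h, and Oas3 averaged 195 ± 12.3 CPM at 5 h and 18.9 ± 2.95 CPM at 1 h. Usp18, the protease that removes ISG15 and damps interferon signalling, rose to 95.9 ± 11.7 CPM at 5 h, against 4.12 ± 1.05 CPM at 1 h (4.58, SE 0.13). The member called lower was Samhd1 (-0.30, SE 0.08), a dNTP hydrolase, named after its values were seen.

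The guanylate-binding proteins and immunity-related GTPases, which attack vacuoles that shelter microbes, rose in 15 of 16 cases, with a median of 3.33. Among all genes tested 26.9% were called higher. Gbp2b had 34.0, 30.4, 34.3 and 34.3 CPM at 5 h and 1.58, 0.673, 1.57 and 0.718 CPM at 1 h (4.74, SE 0.13). Irgm1 had 125, 123, 138 and 134 CPM at 5 h and 16.4, 15.4, 16.6 and 17.2 CPM at 1 h (2.98, SE 0.07), and its 1 h level lay below that of 0 h (23.1 to 24.4 CPM). Irgm2 (3.75) and Igtp (2.90) also stood below their 0 h levels at 1 h and rose by 5 h. Gbp8 was called lower (-0.98, named after its values were seen). These families hold close copies of one another, and reads may be split between members. The interferon response motif (TTTC and TTTC with 2 bases between) was found in all 10 windows of this family that the RefSeq table holds. It was in 13 of 38 windows of the antiviral list (34.2%) and in 3.46% of all windows, or 3.39% of those of genes tested. Other motifs were frequent too. The AP-1 motif (TGANTCA) was in 8 of the 38 antiviral windows (21.1%), against 5.44% of those of genes tested. The NF-kB motif was in 4 of them (10.5%), against 1.52%. Of the 10 windows of the GTPase family 2 held the AP-1 motif and 1 the NF-kB motif. Gbp2b (chr3:142594597-142594846, plus strand) and Irgm1 (chr11:48871421-48871670, minus strand) are shown for the place of the interferon response motif. The capitals in Irgm1 are 2 overlapping matches on the other strand.
Gbp2b: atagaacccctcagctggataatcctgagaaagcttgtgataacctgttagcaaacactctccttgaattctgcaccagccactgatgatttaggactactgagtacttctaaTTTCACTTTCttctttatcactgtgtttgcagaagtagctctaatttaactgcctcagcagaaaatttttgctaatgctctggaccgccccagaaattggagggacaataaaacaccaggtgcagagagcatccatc
Irgm1: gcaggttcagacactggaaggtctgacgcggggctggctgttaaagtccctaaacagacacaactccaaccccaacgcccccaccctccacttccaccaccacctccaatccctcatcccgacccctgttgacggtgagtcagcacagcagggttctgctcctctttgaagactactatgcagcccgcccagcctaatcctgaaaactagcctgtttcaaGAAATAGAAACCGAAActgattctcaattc

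The factors that carry interferon signals were higher in most called cases. Of 18 Irf, Stat and Janus kinase genes 10 were higher and 2 lower (median 0.58), where 26.9% and 28.6% of all genes tested were. Irf7, the amplifier of interferon production, had 80.5, 81.0, 92.2 and 85.3 CPM at 5 h and 2.29, 5.32, 2.57 and 3.23 CPM at 1 h (4.72, SE 0.17, adjusted p = 3.3e-17). Stat2 averaged 123 ± 3.45 CPM at 5 h and 19.8 ± 7.25 CPM at 1 h and Irf9 86.9 ± 1.90 CPM at 5 h and 11.3 ± 5.46 CPM at 1 h. Irf1 had 35.4, 33.4, 36.8 and 33.4 CPM at 5 h and 109, 35.5, 98.2 and 98.5 CPM at 1 h, where replicate 2 lay among the 5 h libraries and the other 3 lay well above them (-1.30, SE 0.20, and -1.55 without replicate 2). The other member called lower, named after its values were seen, was Irf2 (-0.78). Among 12 Socs and related cytokine brakes 8 were higher and 1 lower (median 0.36): Irak3, an inhibitory kinase homologue of the Toll pathway, averaged 187 ± 6.12 CPM at 5 h and 50.2 ± 16.9 CPM at 1 h, Il1rn, the interleukin 1 receptor antagonist, 120.2 ± 2.97 CPM at 5 h and 31.4 ± 15.4 CPM at 1 h, and Il10ra 81.1 ± 3.79 CPM at 5 h and 62.5 ± 7.86 CPM at 1 h. Socs3 was at 233, 234, 244 and 219 CPM at 5 h and 247, 187, 228 and 236 CPM at 1 h and was not called (0.05, adjusted p = 0.55).

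Receptors and antigen presentation moved by less. Of 30 Toll-like receptors and relay proteins 18 were higher and 4 lower (median 0.35), where 26.9% and 28.6% of all genes tested were. The LPS co-receptor gene Cd14 averaged 2459 ± 129.6 CPM at 5 h and 1081 ± 164 CPM at 1 h (1.19). Tlr1, the partner of TLR2, averaged 49.4 ± 2.76 CPM at 5 h and 16.4 ± 2.05 CPM at 1 h (1.60), Irak2 rose by 1.21 and the adaptor gene Tirap by 0.99 on the log2 scale. Of 21 class I presentation and costimulation genes 17 were higher and 1 lower, with a median of 0.30; without replicate 2 the counts were 13 and 2. Cd40, the costimulatory receptor, had 192, 201, 205 and 193 CPM at 5 h and 25.02, 14.7, 16.7 and 16.4 CPM at 1 h (3.42, SE 0.12). The peptide transporter Tap1 rose by 1.17, the loading chaperone Tapbp by 0.91 and Nlrc5, the transactivator of class I genes, by 1.03.

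**Figure D3:**
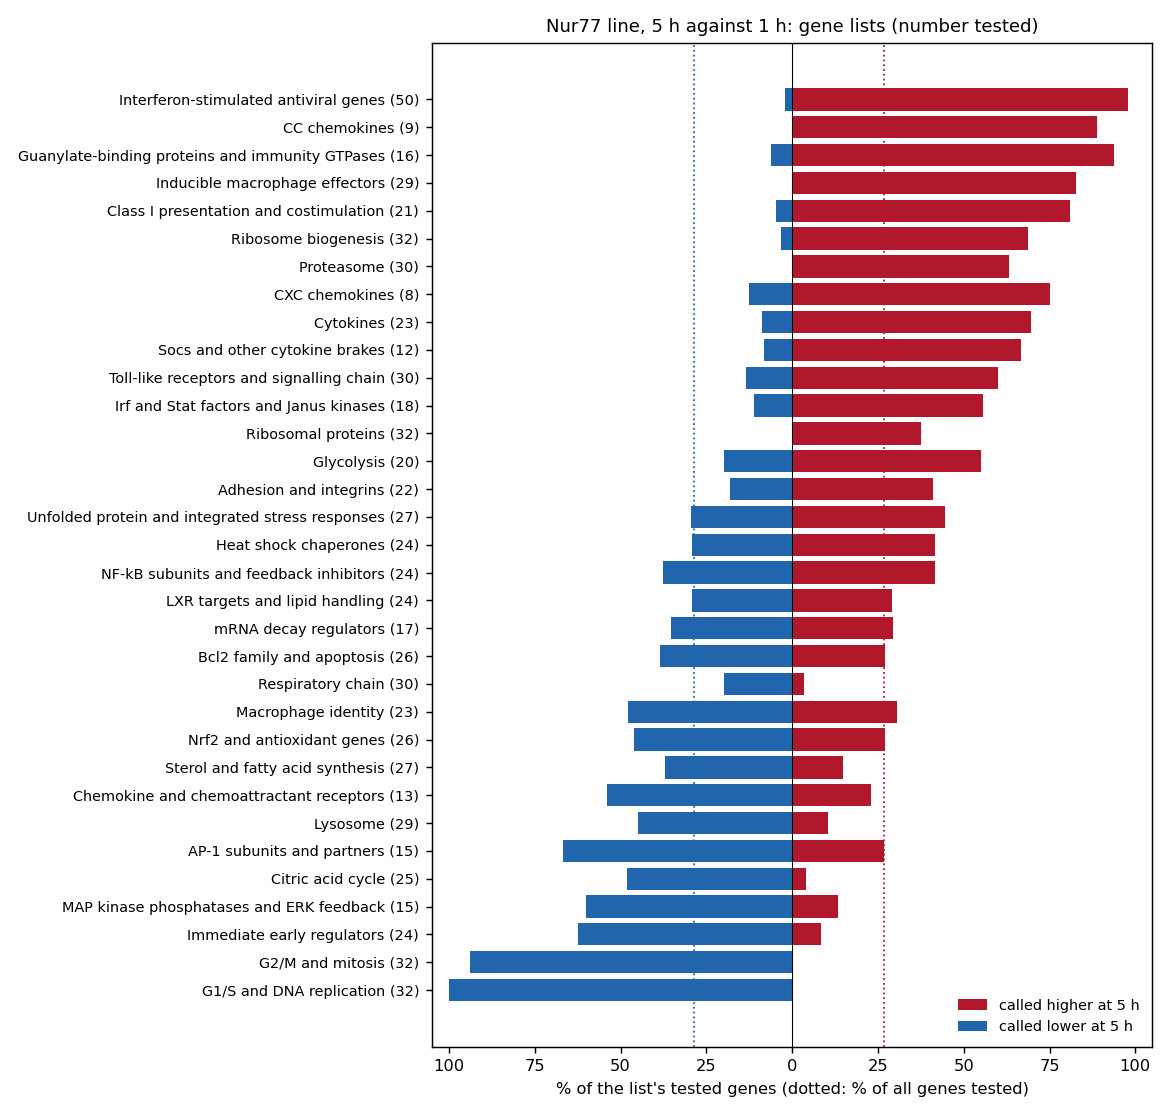
Share of each gene list called higher (red, to the right) or lower (blue, to the left) at 5 h against 1 h in the Nur77 line, in % of the list's tested genes, whose number stands in brackets; dotted lines mark 26.9% and 28.6% of all genes tested. Antiviral genes, CC chemokines, GTPases and effectors lie at the top and both cell cycle lists at the bottom.

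Cell cycle genes fell almost without exception. All 32 genes of the G1/S transition and DNA replication were called lower, with a median of -0.98, where 28.6% of all genes tested were called lower, and the same was found without replicate 2. Against 0 h 17 of them were called lower and 1 higher at 1 h, where 21.8% and 22.5% of all genes were. Without replicate 2 these counts at 1 h were 13 and 2. At 5 h all 32 were called lower than at 0 h, where 34.2% of all genes were. Mcm6, a subunit of the replicative helicase, had 80.8, 79.8, 87.4 and 81.8 CPM at 5 h and 249.6, 169.7, 247 and 244 CPM at 1 h, with replicate 2 between the groups (-1.47, SE 0.08, adjusted p = 9.6e-14). Cdc6, which loads that helicase at origins, had 6.09, 6.05, 5.79 and 7.29 CPM at 5 h and 28.9, 18.2, 26.6 and 23.5 CPM at 1 h (-1.96, SE 0.11). Ccne1, encoding cyclin E1, had 10.5, 10.2, 10.1 and 10.8 CPM at 5 h and 34.6, 32.0, 34.7 and 34.8 CPM at 1 h (-1.71, SE 0.08), and the transcription factor gene E2f1 averaged 13.2 ± 1.40 CPM at 5 h and 36.2 ± 2.82 CPM at 1 h. None of these 4 genes overlapped between the groups. Of 32 genes of G2/M and mitosis 30 were lower, with a median of -0.57, and all 32 without replicate 2. Foxm1, which drives mitotic genes, averaged 50.1 ± 2.25 CPM at 5 h and 99.1 ± 19.3 CPM at 1 h (-0.99), and the spindle and midzone genes Kif23 (-0.86), Prc1 (-0.85) and Nusap1 (-0.97) fell by less than Cdc6 or Ccne1.

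An E2F site, written TTTCCCGC or TTTGGCGC, was looked for after these counts were seen. It was found in 6 of 26 windows of the G1/S list (23.1%) and in 1.51% of all windows, or 3.04% of those of genes tested. None of 25 windows of the G2/M list held it. Mcm6 (chr1:128359706-128359955, minus strand) holds 2 matches and Cdc6 (chr11:98907901-98908150, plus strand) 1, on the other strand.
Mcm6: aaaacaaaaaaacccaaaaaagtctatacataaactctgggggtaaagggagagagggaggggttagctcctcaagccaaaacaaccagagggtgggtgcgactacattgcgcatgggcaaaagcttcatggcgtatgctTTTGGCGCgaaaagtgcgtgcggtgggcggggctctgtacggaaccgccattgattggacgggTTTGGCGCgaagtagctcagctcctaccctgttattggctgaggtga
Cdc6: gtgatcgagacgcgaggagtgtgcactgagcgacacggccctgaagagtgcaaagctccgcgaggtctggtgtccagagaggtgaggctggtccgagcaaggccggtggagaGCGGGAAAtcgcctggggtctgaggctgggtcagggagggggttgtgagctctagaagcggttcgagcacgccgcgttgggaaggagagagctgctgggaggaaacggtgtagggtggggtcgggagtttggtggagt

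Macrophage identity and lysosome genes leaned to lower values, where 28.6% of all genes tested were called lower and 26.9% higher. Of 23 identity genes 11 were lower and 7 higher, with a median of -0.18, and without replicate 2 14 were lower. The Fc gamma receptor genes Fcgr3 (20.7 ± 2.91 CPM at 5 h and 71.3 ± 12.2 CPM at 1 h, -1.79) and Fcgr1 (20.2 ± 2.07 CPM at 5 h and 44.6 ± 4.77 CPM at 1 h, -1.15) fell. Fcgr2b, another Fc gamma receptor gene of the list, went the other way, with means of 236 CPM at 5 h and 83.8 CPM at 1 h (named after its values were seen). Mpeg1, encoding the pore-forming perforin-2, rose to 1179 ± 38.0 CPM at 5 h, against 613 ± 110.1 CPM at 1 h. Of 29 lysosome genes 13 were lower and 3 higher (median -0.13). Tfeb, the factor that coordinates lysosome genes, had 2.596, 3.46, 2.97 and 2.19 CPM at 5 h and 21.4, 8.75, 17.4 and 20.5 CPM at 1 h (-2.61, SE 0.20), while its relative Mitf rose (0.72, SE 0.09). The lysosomal membrane protein gene Scarb2 (-0.89) and the sialidase gene Neu1 (-0.44) fell. Among chemoattractant receptors 7 of 13 were lower and 3 higher: S1pr1, which guides cells toward sphingosine 1-phosphate, had 7.22, 5.91, 6.24 and 6.02 CPM at 5 h and 66.8, 22.6, 86.6 and 74.5 CPM at 1 h (-3.29, SE 0.27). The ATP-gated channel P2rx7 fell (-1.22), and the adenosine receptor gene Adora2a (5.48 CPM at 5 h and 0.562 CPM at 1 h, 3.38) and the complement receptor gene C5ar1 (0.58) rose. Of 22 adhesion genes 9 were higher and 4 lower, and the rises included the integrin gene Itgal (2.45, SE 0.14), the hyaluronan receptor gene Cd44 (1.70) and Marcks (2.27).

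Metabolic lists moved by small amounts in different directions, where 26.9% of all genes tested were called higher and 28.6% lower. Of 20 glycolysis genes 11 were higher and 4 lower, with a median of 0.23. Hk2, the inducible hexokinase, averaged 369 ± 21.3 CPM at 5 h and 150.1 ± 23.5 CPM at 1 h (1.30), the lactate transporter Slc16a3 rose by 0.996, Pfkl by 0.76 and Pfkfb3 by 0.72. Of 25 genes of the citric acid cycle and related enzymes, some of them cytosolic, 12 were lower and 1 higher (median -0.12). The largest fall was that of Idh1, the cytosolic isocitrate dehydrogenase, with 35.6 ± 3.25 CPM at 5 h and 97.1 ± 17.3 CPM at 1 h (-1.45). Sdha, a subunit of succinate dehydrogenase (-0.27), and the genes of the cytosolic enzymes Mdh1 (-0.37) and Aco1 (-0.33) fell by less. Of 30 respiratory chain genes 6 were lower and 1 higher, both below the shares of all genes tested, and the median was 0.00. Of 27 sterol and fatty acid synthesis genes 10 were lower and 4 higher, and those that fell included the desaturases Scd1 (-0.96) and Scd2 (-0.99) and the elongase Elovl6 (-0.82). Of 24 LXR and lipid handling genes 7 were higher and 7 lower, shares near those of all genes tested. Cpt1a, the gate of mitochondrial fatty acid oxidation, had 5.91, 6.77, 5.94 and 6.74 CPM at 5 h and 50.0, 28.8, 53.3 and 52.2 CPM at 1 h (-2.87, SE 0.15), the cholesterol exporter Abcg1 fell (-1.57), as did Scarb1 (-0.67), and the ubiquitin ligase gene Mylip rose (0.997).

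Ribosome biogenesis and proteasome genes rose by small amounts, where 26.9% of all genes tested were called higher and 28.6% lower. Of 32 biogenesis genes 22 were higher and 1 lower (median 0.32), and Mybbp1a (0.63), Bop1 (0.65), Bysl (0.43) and Nop2 (0.37) rose. Of 30 proteasome genes 19 were higher and the other 11 were not called (median 0.18); without replicate 2, 23 were higher. Psma6 stood out with 412 ± 18.5 CPM at 5 h and 201 ± 22.5 CPM at 1 h (1.04), and Psmd3 (0.63), Psmd11 (0.57) and Psmb6 (0.40) followed. Of 32 ribosomal protein genes 12 were called higher, with a median of 0.12, but CPM of the 2 groups overlapped for all 32, including Rpl6 (0.29), Rpl8 (0.23) and Rpl15 (0.32). None of these 3 passed the threshold when only the compared groups were fitted and replicate 2 was left out (adjusted p = 0.0868 to 0.131).

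Stress and survival genes were mixed. Of all genes tested 26.9% were called higher and 28.6% lower, and in each list below the smaller count was near that share. Of 27 genes of the unfolded protein and integrated stress responses 12 were higher and 8 lower (median 0.12). Ppp1r15a, which restores translation by dephosphorylating eIF2-alpha, had 214, 207, 214 and 194 CPM at 5 h and 656, 892, 625 and 571 CPM at 1 h (-1.73, SE 0.10), Herpud1 fell (-0.31), and Xbp1 (0.38) and Mthfd2 (0.37) rose. Of 24 heat shock genes 10 were higher and 7 lower: the Hsp40 genes Dnajb4 (-1.40) and Dnajb1 (-0.64) and the co-chaperone Bag3 (-0.73) fell, and the chaperonin subunit Cct3 (0.45) rose. Of 26 antioxidant genes 12 were lower and 7 higher, and catalase (-0.81), Gpx4 (-0.71) and Srxn1 (-0.77) fell while Sod2 rose. Of 26 Bcl2 family and apoptosis genes 10 were lower and 7 higher: the death receptor gene Fas had 56.5, 55.8, 50.9 and 55.0 CPM at 5 h and 4.58, 7.81, 5.49 and 3.05 CPM at 1 h (3.37, SE 0.14), and Bcl2a1b (1.45) and Bcl2a1d (1.62) rose, copies so alike that their counts may share reads.

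Several lists held a few members called against the majority, named here after their values were seen. Among cytokine brakes Pias1, an inhibitor of STAT signalling, was lower (-0.23). The Toll list had the receptor genes Tlr8 (-0.96) and Tlr13 (-1.14), the kinase gene Irak4 (-0.47) and Ticam1, encoding TRIF (-0.55), on the lower side. In the class I list calreticulin was lower (-0.32), and among biogenesis genes Rrs1 (-0.26). Glycolysis genes called lower were Hk3 (-0.44), Gpi1 (-0.16), Pfkm (-0.88) and Pdk1 (-0.13). Higher members were Dlst of the citric acid cycle (0.14), Atp5b of the respiratory chain (0.15), the lysosome genes Ctsz (0.29) and Atp6v1h (0.39) and the adenosine receptor gene Adora2b (1.89). In the sterol list Srebf2 (0.40), Scap (0.29) and Lss (0.33) were among those higher. Decay regulators called higher were Cnot7 (0.53), Hnrnpd (0.20), Tob2 (0.30), Zc3h12a (0.35) and Zc3h12c (0.54). In the adhesion list Itgb7 (-0.33), Vim (-0.34) and Vcl (-0.29) were among those lower.

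The place of 1 h replicate 2 was measured on a log2 scale after 0.1 CPM was added to each value. On it 0 was the mean CPM of the other 1 h libraries and 100 that of the 5 h libraries. Over the 772 genes higher by at least 1 without it, which it did not help choose, its median position was 27.7, with quartiles of -1.59 and 57.4. Over the 932 genes lower by at least 1 it was 33.4, with quartiles of 10.2 and 57.3. The shift was uneven between lists. Its median position was 51.5 for 7 macrophage identity genes, 49.1 for 7 chemoattractant receptors, 44.8 for 9 Bcl2 family genes and 33.9 for 18 G1/S genes. It was only 6.33 for 47 antiviral genes and 3.64 for 9 AP-1 genes, and -23.1 for 7 CXC and CX3C chemokines. For Nos2, Lcn2, Csf3, Csf2, Lix1 and Upp1, the 6 genes whose fold change moved most, that library was the highest of its group. The plot of both fits shows these genes well above the diagonal.

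**Figure D4:**
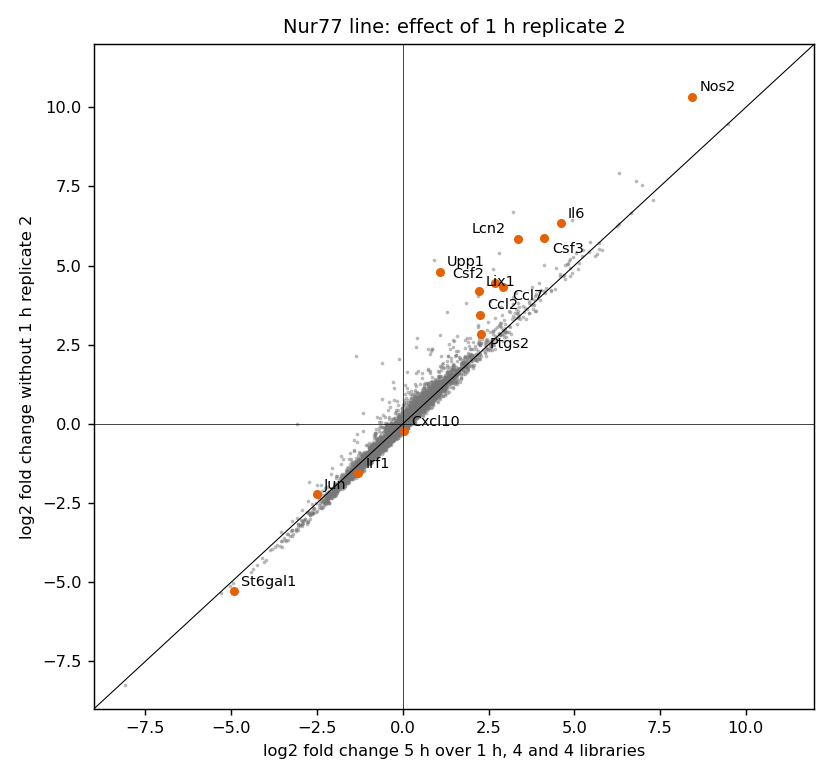
Log2 fold change at 5 h over 1 h without 1 h replicate 2 (vertical axis) against that with all 8 libraries (horizontal axis), 1 point per gene tested, with the diagonal and zero lines. Upp1 lies at 1.08 and 4.80, Lcn2 at 3.37 and 5.85 and Cxcl10 at 0.04 and -0.22.

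The same course in the GFP line used none of these libraries. Across the 12198 genes tested, which are not independent replicates, the log2 fold changes of the 2 lines had a Pearson r of 0.872 and a Spearman rho of 0.830, both given as descriptions. Of the 658 genes higher by at least 1 in the Nur77 line 533 were so in the GFP line, 81.0% of the Nur77 list and 64.5% of the 826 (6.77%) of the GFP line. Of the 813 lower genes 524 were shared, 64.5% of the Nur77 list and 70.8% of the 740 (6.07%) of the GFP line. A test of the difference of the courses called 799 genes (6.55%), 316 (2.59%) with a more positive and 483 (3.96%) with a more negative course in the Nur77 line, and 1266 (10.4%) without replicate 2, 543 (4.45%) more positive and 723 (5.93%) more negative. The counts moved with other single libraries too: without 1 h replicate 1 they were 674 more positive and 824 more negative, and without 5 h replicate 2, 201 were more positive. Among early genes 7 of 24 regulators had a more positive course than in GFP cells and 1 a more negative one, and without replicate 2 these counts were 9 and 4. Nr4a1 changed by -2.76 in the Nur77 line and -4.41 in the GFP line (difference 1.65, adjusted p = 0.029), and Jun by -2.501 in the Nur77 line and -3.36 in the GFP line (difference 0.85, adjusted p = 0.0071). Of 29 effectors 9 were more negative and 0 more positive, and without replicate 2 11 and 2. Ptgs2 changed by 2.27 in the Nur77 line and 3.83 in the GFP line (difference -1.56, adjusted p = 0.013, and -0.98 without replicate 2), and Saa3 by 4.11 in the Nur77 line and 5.08 in the GFP line (difference -0.97, adjusted p = 3.1e-05). Of the NF-kB list 9 of 24 were more negative, and 14 without replicate 2, among them Nfkb1 (-0.61) and Nfkb2 (-0.55). Antiviral genes had 12 of 50 more positive, with Usp18 at 1.88 and Oas3 at 1.15, and 6 more negative, and 4 of 16 GTPases were more negative, with Gbp2b at -1.24.

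The largest differences called with and without replicate 2, among genes that reached 10 CPM, were those of Akap12, Usp18, H1f2 and Nr4a1 on the positive side and of Ccl7, Pilra, Marcks and Gja1 on the negative side. Akap12, a scaffold of protein kinases, had 17.5, 18.3, 20.3 and 18.0 CPM at 5 h and 1.499, 1.89, 2.005 and 1.88 CPM at 1 h in the Nur77 line (3.36), and changed by 0.20 in the GFP line (difference 3.15, adjusted p = 0.0001). H1f2, a linker histone gene with close copies, was at 8.83 ± 0.828 CPM at 5 h and 10.1 ± 1.63 CPM at 1 h and not called in the Nur77 line, and changed by -1.93 in the GFP line. Pilra, an inhibitory receptor of myeloid cells, rose by 1.04 in the Nur77 line and 3.01 in the GFP line, and Gja1, encoding connexin 43, by 0.88 in the Nur77 line and 2.66 in the GFP line. Marcks, a substrate of protein kinase C, had a difference of -1.88 and Ccl7 one of -2.20, which was -0.81 without replicate 2. With only the compared groups fitted, the differences of Nr4a1 (adjusted p = 0.0986), Ptgs2 (adjusted p = 0.0599) and Ccl7 (adjusted p = 0.108) missed the threshold. That of Nr4a1 also missed it without 5 h replicate 2 or 3 of the Nur77 line, or without 5 h replicate 2, 3 or 4 of the GFP line (adjusted p = 0.0519 to 0.0589). That of Ccl7 missed it without 5 h replicate 2 or 4 of the Nur77 line, or without 1 h or 5 h replicate 2 or 3 of the GFP line (adjusted p = 0.0508 to 0.0576).

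**Figure D5:**
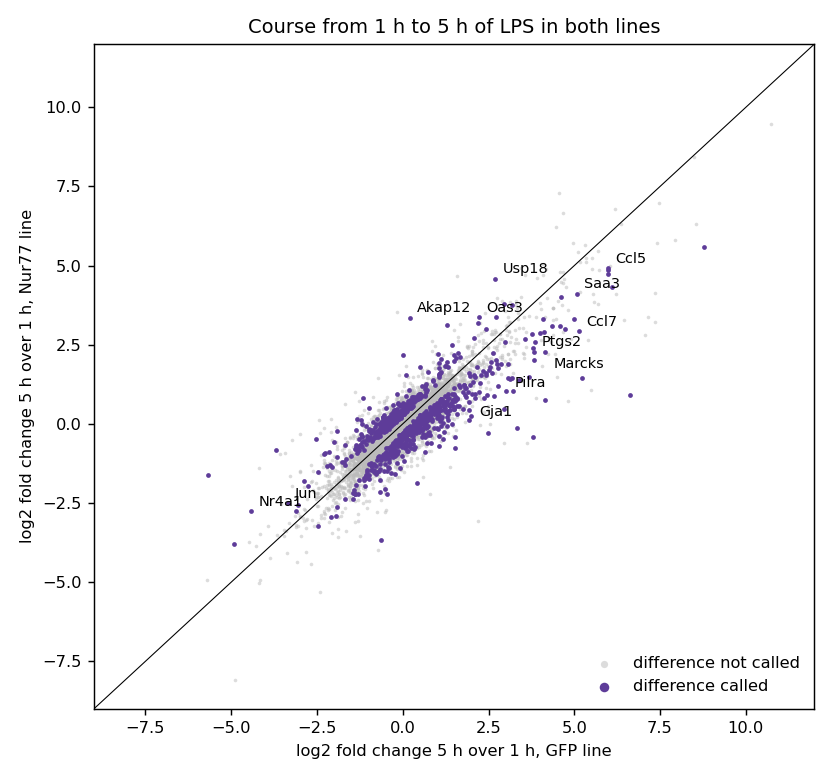
Log2 fold change at 5 h over 1 h of LPS in the Nur77 line (vertical axis) against that in the GFP line (horizontal axis), 1 point per gene tested, with the diagonal. Purple points are the 799 genes whose courses were called different; Akap12 and Usp18 lie above the diagonal and Ccl7, Ptgs2 and Pilra below it.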

How the data were processed

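RNA sequencing libraries of the Nur77 and GFP lines were read from 1 table of estimated counts per RefSeq transcript, deposited by the authors without normalization. Values were multiples of 0.5. CASAVA 1.8.2, HISAT2 2.1.0 and the mm10 build are named in the submitters' processing notes. The counter, strandedness and gene models used are not stated in the labels, so reads of overlapping or antisense genes may be mixed. Of 42361 transcripts 42203 were named from the RefSeq table, 65 from GENCODE, and 93 kept their identifiers. For each gene the transcript with the highest mean estimated count was kept and rounded to whole numbers, giving 25160 genes.

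edgeR 4.0.16 in R 4.3.3 was fitted to all 24 libraries as 6 group means (robust quasi-likelihood, TMM scaling, filterByExpr, 18 residual degrees of freedom), with Benjamini-Hochberg adjustment over the 12198 genes tested and a threshold of 0.05. The common biological coefficient of variation was 0.0979, and 0.0803 without Nur77 1 h replicate 2. The same fit gave the GFP course, the difference of the courses and the comparisons with 0 h, which share libraries with the main comparison. Precision is set by 4 libraries a group and by depth.

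Members and gene lists were chosen with earlier results of these data known, so lists are described by counts and medians, with no test of a list. Named genes were a panel of 27 LPS genes, of which Il10 and Ifnb1 could not be tested, the 10 largest changes each way among genes called with and without replicate 2 reaching 10 CPM and without overlap of the groups, up to 4 genes of each list with the smallest adjusted p, the largest differences between lines, and the 6 genes that moved most without replicate 2. Genes outside this rule are marked in the text, and the values of some genes are not reported here.

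Promoter windows of 250 bases before the start came from RefSeq (GRCm38.p6; 27025 windows) and were searched on both strands for TGANTCA (AP-1), TGACGTCA, the interferon response and NF-kB motifs, the CArG box and, added after the results were seen, TTTCCCGC or TTTGGCGC. The AP-1 motif occurred in 7.82% of windows. Alternatives were DESeq2 1.42.0, its size factors, other filters, the mean over transcripts, only the compared groups, each library left out and a replicate block.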

Additional observations from a re-analysis of the deposited data

Results flagged for a closer look

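A library of a named gene was singled out where its gap to the nearest of the other 3, divided by the range of the 4, passed Dixon's critical value. This was met in 45 of 332 groups of 4 libraries, and 35 of the 45 were in Nur77 1 h replicate 2. The 332 groups, and the 320 below, also hold those of named genes not reported here. Groups singled out for such genes are left out of the counts, so the counts do not give exact rates. Chance gives about 1 in 20, but the count is a description only, since 6 of the genes were named because their change moved most without that library, and all 6 are among the 35. Without these 6 genes it was met in 38 of 320 groups, 29 of them in that library. Over all genes tested that library was singled out 611 times and the other 7 libraries 69 to 266 times each.

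At the upper end of the 1 h group, replicate 2 had Bcl2a1b at 358 CPM, Ccl2 at 404 CPM, Ccl3 at 1958 CPM, Ccl7 at 18.6 CPM and Ccl9 at 1995 CPM. Above its group this library also had Csf2 at 382 CPM, Csf3 at 176 CPM, Dusp5 at 119 CPM, Ier3 at 585 CPM and Il1rn at 54.4 CPM. It was likewise highest for Il6 at 2.76 CPM, Itgal at 24.2 CPM, Lcn2 at 71.1 CPM, Lix1 at 18.2 CPM and Mthfd2 at 433 CPM. Further high values were Mx2 at 0.539 CPM, Nfkb1 at 284 CPM, Nos2 at 1.08 CPM, Ptgs2 at 523 CPM and Stat2 at 30.6 CPM. Also highest was Upp1 at 33.1 CPM. At the lower end of the 1 h group, replicate 2 had Ccne1 at 32.0 CPM, Cpt1a at 28.8 CPM, Cxcl10 at 185 CPM, Cxcl11 at 8.35 CPM and Cxcl16 at 8.08 CPM. Below its group it also had Foxm1 at 70.3 CPM, H1f2 at 7.68 CPM, Irf1 at 35.5 CPM, Mcm6 at 169.7 CPM and Mylip at 11.4 CPM. It was likewise lowest for Nr4a1 at 9.29 CPM, Scarb2 at 61.3 CPM, Sdha at 255 CPM and St6gal1 at 0.875 CPM. In 5 h replicate 1 the highest value stood apart for Cxcl11 at 189 CPM and Lix1 at 27.9 CPM. In 5 h replicate 1 the lowest value stood apart for Mpeg1 at 1122 CPM. In 5 h replicate 2 the lowest value stood apart for Gbp2b at 30.4 CPM. In 5 h replicate 3 the highest value stood apart for Dkk2 at 1.19 CPM. In 5 h replicate 4 the highest value stood apart for Scd1 at 108 CPM and St6gal1 at 0.729 CPM. In 5 h replicate 4 the lowest value stood apart for Dusp5 at 35.0 CPM, Psmb6 at 136 CPM and Zfp36 at 144 CPM.

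The change at 5 h against 1 h differed between the Nur77 and the GFP line for 42 of the named genes reported here by edgeR's test of the difference, 16 more positive and 26 more negative in the Nur77 line. Of the 42, 32 passed the threshold under every alternative run, and 10 missed it under at least 1: Acod1, Arc, Btg2, Ccl7, E2f1, Egr2, Fcgr1, Fcgr3, Nr4a1 and Ptgs2. With all groups fitted and only 1 h replicate 2 left out, 0 of the 42 were lost. On the log2 scale the positive differences were Akap12 at 3.15, Usp18 at 1.88, H1f2 at 1.72, Nr4a1 at 1.65 and Oas3 at 1.15. Smaller ones were Arc at 1.12, Jun at 0.85, Dusp5 at 0.82 and Fos at 0.78. Next were Lif at 0.62, Irgm1 at 0.55, Cd14 at 0.54 and Btg2 at 0.49. Below these lay Mpeg1 at 0.45, Pfkl at 0.42 and Egr2 at 0.38. The negative differences were Ccl7 at -2.20, Pilra at -1.97, Marcks at -1.88, Gja1 at -1.78 and Ptgs2 at -1.56. After these came Gbp2b at -1.24, Ccl22 at -1.12, Ccl5 at -1.07, Saa3 at -0.97 and Acod1 at -0.90. Then followed Irak3 at -0.85, Tlr1 at -0.82, Mylip at -0.76, Ppp1r15a at -0.73 and Socs3 at -0.64. Nearer to zero were Atf3 at -0.63, Nfkb1 at -0.61, Zfp36l2 at -0.60, Mitf at -0.57 and Marcksl1 at -0.56. Closer still were Nfkb2 at -0.55, Fcgr3 at -0.52, Ripk2 at -0.49 and Irak2 at -0.43. The smallest negative ones were E2f1 at -0.41 and Fcgr1 at -0.39. No explanation was tested for these values.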

How the results depend on the processing

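The 4 counts of genes called in the Nur77 line stayed within 1.5 times under every alternative run, with 2700 genes higher and 2694 lower when only the compared groups were fitted and 3587 and 3622 without 1 h replicate 2. Of 166 named genes 154 kept their direction and side of the threshold throughout and 12 did not. Without 1 h replicate 2, Ier3 turned from -0.23 to 0.19, Cxcl10 from 0.04 to -0.22 and Socs3 from 0.05 to -0.028. The values were 0.19, -0.22 and -0.030 when only the compared groups were also fitted. With 1 library left out in turn they ran from -0.38 to 0.19 for Ier3, -0.22 to 0.15 for Cxcl10 and -0.028 to 0.084 for Socs3. Of 66 list counts 52 stayed within 1.5 times. Genes with a more positive course in the Nur77 line numbered 316, with a range of 201 to 674 when 1 library was left out, and 508 with only the compared groups and without 1 h replicate 2. Those with a more negative course numbered 483, with a range of 360 to 824, and 284 with only the compared groups. The cause of these shifts was not tested.

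Replicate numbers showed no clear pairing of the samples: deviations of same-numbered 5 h and 1 h libraries correlated at -0.041, -0.047, -0.044 and 0.103. Those of libraries with unlike numbers correlated at -0.183 to 0.156. With 4 libraries a group these values do not settle whether samples were paired. A replicate block gave 3193 genes higher and 3330 lower, 209 with a more positive course, and changed the call of 1 named gene at 5 h against 1 h, Upp1 (2.38, adjusted p = 0.0179). Of the differences between lines, those of Acod1, Arc, Ccl7, Egr2 and Fcgr1 were no longer called under it. Genes near 0 counts at 1 h, such as Nos2, Il6 and Il12b, have fold changes limited by depth.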
